A study of Mus musculus with 6 samples.

Results

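The 8 genes described here, *Bglap*, *Bglap2*, *Bglap3*, *Ibsp*, *Dmp1*, *Ifitm5*, *Alpl* and *Spp1*, encode noncollagenous proteins of osteoblasts and osteocytes linked to bone mineralization. They were looked up by symbol among the 621 genes of the deposited expression table, and all 8 were in it. The study addressed what loss of *Phc2*, a subunit of Polycomb repressive complex 1, does to mouse bone marrow (BM). The libraries were made from poly(A) RNA of BM cells from femurs and tibias of mice on a C57BL/6 background at 8 weeks of age, 3 of them KO (replicates 4, 8 and 9) and 3 WT (replicates 1, 3 and 7). The KO mice were bred from *Phc2* +/- parents. They are knockouts by the titles and source of the samples and by the paper, but the genotype field of the same samples calls them heterozygotes. The level of *Phc2* itself was not analysed here and gave no check of the genotype. Whether the libraries are from separate mice is not said in the labels or the paper, and the errors and p-values below measure the spread between libraries.

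Osteoblasts are the mesenchymal cells that line bone and secrete a collagen matrix, and osteocytes are their descendants, buried in that matrix once it mineralizes. Mineral forms when phosphate is set free outside the cell and crystals grow on collagen in the presence of acidic, calcium-binding proteins, which the members of the osteocalcin and SIBLING families supply. Osteocalcin is the most abundant noncollagenous protein of bone, and mice carry adjacent copies of its gene. These cells adhere to bone and are a small share of the cells that are flushed from a marrow cavity. In bulk RNA, fewer cells of a type and less RNA per cell cannot be told apart.

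The levels are FPKM, an abundance divided by transcript length and by library size, so they can be compared between genes. The results below rest on these, with the authors' deposited log2 values tried only as an alternative. The depth of each library is unknown. The authors had picked the 621 genes on these very libraries: each differs by 2-fold or more between some KO library and some WT library, among the 9 such pairs. Tests on these genes are thus not independent evidence. The 6 libraries also fell apart by the level of another gene. *Xist*, the RNA of the inactive X chromosome of female cells, was at 74.6 FPKM in KO 4, 113 in WT 1 and 98.2 in WT 3, but at 0.0192 in KO 8, 0.0155 in KO 9 and 0.00848 in WT 7. The labels give no sex. This division cuts across genotype, and values within each side are given beside the results.

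The osteocalcin genes lie side by side on the minus strand of chromosome 3, in the order *Bglap3* (88368616 to 88372741), *Bglap2* (88377736 to 88378701) and *Bglap* (88383495 to 88384466), within 15.9 kb of GRCm38. Their sequences are shown first because the copies are nearly alike, which bears on how far their levels can be told apart. In GENCODE M21 each has 4 exons and a coding sequence of 288 bases without gaps between the copies. *Bglap* and *Bglap2* were identical at 98.6% of coding positions and differed at 4. *Bglap2* and *Bglap3* were identical at 96.9% (9 differences), and *Bglap* and *Bglap3* at 95.5% (13 differences). The stretch of 100 bases, the length of a read, with the most differences is printed from coding positions 174 to 273. It lies within 1 exon, and capitals mark the 7 positions at which the copies are not all alike.
Bglap, chr3:88383650-88383749, minus strand: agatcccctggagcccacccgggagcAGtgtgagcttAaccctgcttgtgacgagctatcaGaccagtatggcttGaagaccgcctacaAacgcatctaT
Bglap2, chr3:88377885-88377984, minus strand: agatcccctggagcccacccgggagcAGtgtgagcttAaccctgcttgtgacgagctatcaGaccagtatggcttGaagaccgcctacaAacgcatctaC
Bglap3, chr3:88368771-88368870, minus strand: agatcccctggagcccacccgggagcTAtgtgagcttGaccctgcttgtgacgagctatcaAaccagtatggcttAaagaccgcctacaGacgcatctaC
In this stretch *Bglap* and *Bglap2* differ at the last base only, whereas *Bglap3* has its own base at the other marked positions. Over the whole *Bglap* transcript of 440 bases, 56.3% of all windows of 100 bases were found unchanged in *Bglap2*, and none in *Bglap3*. Of the windows of *Bglap3*, 3.24% were shared with *Bglap2*. The levels of *Bglap* and *Bglap2* given below therefore rest in part on how the authors' quantification divided reads between them, while that of *Bglap3* depends little on it.

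*Ibsp*, *Dmp1* and *Spp1* form a second cluster, the SIBLING genes, within 243 kb of chromosome 5 on the plus strand, with *Dmp1* from 104197575, *Ibsp* from 104299287 and *Spp1* up to 104441053. *Ifitm5* lies on chromosome 7 (140948958 to 140950243) and *Alpl* on chromosome 4 (137741731 to 137796384), both on the minus strand. RefSeq promoters of GRCm38.p6 were at hand for 7 of the 8 genes, at 12 start sites, and *Bglap2* had none. The 250 bases before each start were searched on both strands for AACCACA, the core that RUNX2, the transcription factor needed for osteoblasts, is known to recognize, and for TATAAA and CCAAT, which occur in promoters of many kinds. AACCACA was before 2 of the 12 start sites, 1 each of *Dmp1* and *Spp1*, and is in 4.40% of all 32851 promoters of the table. TATAAA was before 4 of the 12 (12.4% of all promoters) and CCAAT before 8 (33.8%), 3 of them of *Bglap3*. The upstream bases of the genes that carry AACCACA are printed with those of *Bglap* and *Ibsp*, whose TATAAA lies 27 and 28 bases before the start. Capitals mark the motifs on either strand.
Bglap, chr3:88384473-88384571, minus strand: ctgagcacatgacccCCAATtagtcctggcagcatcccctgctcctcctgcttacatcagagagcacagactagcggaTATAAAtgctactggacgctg
Ibsp, chr5:104299218-104299279, plus strand: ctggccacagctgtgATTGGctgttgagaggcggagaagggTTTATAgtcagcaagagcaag
Dmp1, chr5:104202437-104202579, plus strand: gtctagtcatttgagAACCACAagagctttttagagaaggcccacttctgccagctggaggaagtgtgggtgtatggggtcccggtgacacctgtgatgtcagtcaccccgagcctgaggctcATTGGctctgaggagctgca
Spp1, chr5:104434885-104435084, plus strand: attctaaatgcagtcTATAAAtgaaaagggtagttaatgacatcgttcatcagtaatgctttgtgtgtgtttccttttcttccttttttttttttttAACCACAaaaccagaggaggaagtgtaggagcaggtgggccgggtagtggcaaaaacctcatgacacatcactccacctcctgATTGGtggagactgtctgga
A match is a run of letters in these windows, not a measured binding site. The *Dmp1* match lies before the second annotated start of the gene, 165 bases upstream, and the *Spp1* match before the first, 129 bases upstream.

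All 8 genes had a lower mean in KO than in WT, and the 95% confidence interval of each difference spanned 0. A lower mean was found for 61.8% of all 621 genes. No member passed limma at an adjusted p of 0.05, nor did any of the 621 genes (0%). At an unadjusted p under 0.05 there were again no members, against 2.25% of all genes. The log2 difference between KO and WT had a median of -0.66 over the members and of -0.35 over all genes. What the members shared more closely was their order over the libraries: in all 8 the 3 highest libraries were KO 4, WT 1 and WT 3, which are those with *Xist*. This held for 28.2% of all genes. The KO and WT libraries overlapped for each of the 8, while they did not overlap for 7.25% of all genes.

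**Figure D1:**
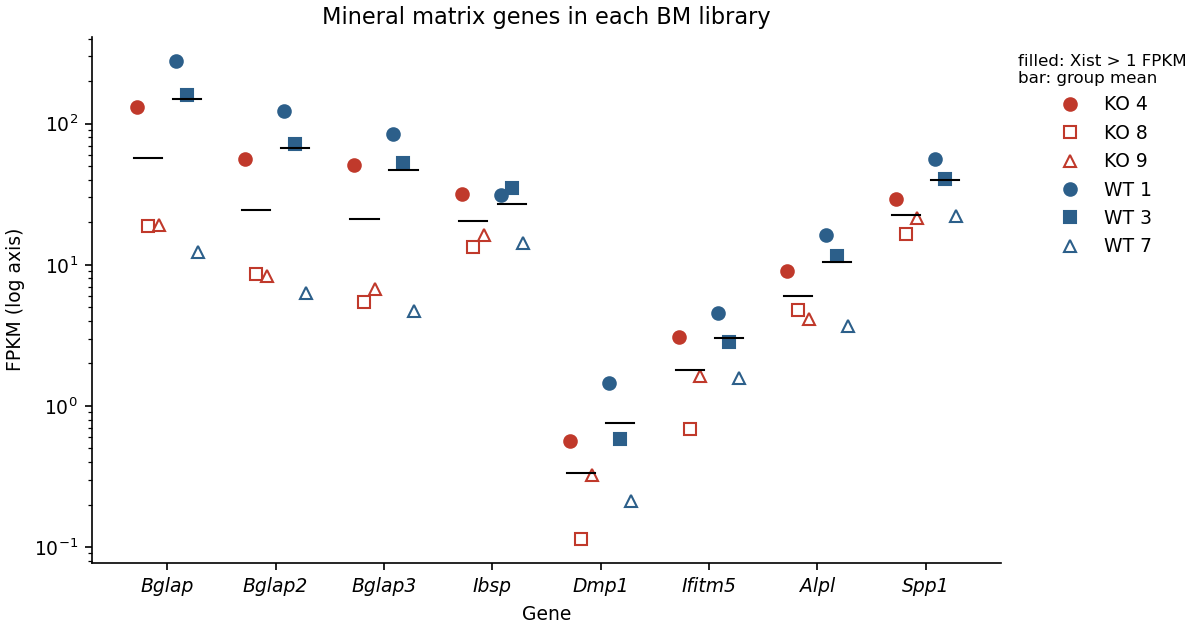
FPKM of the 8 genes (log axis) in the 3 KO libraries (red) and the 3 WT libraries (blue), with filled symbols for libraries with *Xist* above 1 FPKM and a bar for the mean of each group. KO 4, WT 1 and WT 3 lie above the other 3 libraries for every gene, and *Dmp1* lies lowest.

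*Bglap* encodes osteocalcin, the vitamin K-dependent calcium-binding protein of mature osteoblasts. Its level was 132, 18.7 and 19.3 FPKM in KO 4, 8 and 9, and 279.5, 158.5 and 12.2 FPKM in WT 1, 3 and 7. One KO library was thus close to the lower of the high WT libraries, and the lowest library of all was a WT, so the groups overlapped. The mean was 56.7 ± 65.4 FPKM in KO and 150 ± 134 in WT (SD, n = 3 each), and each SD was about as large as its mean. The log2 difference was -1.16 (SE 0.85, 95% confidence interval -2.91 to 0.60, adjusted p = 0.598 by limma). *Bglap* was 22.9-fold higher in the highest library than in the lowest. Only 10 of the 621 genes had a wider range on the log2 scale.

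*Bglap2*, the second osteocalcin copy, was at 56.6, 8.64 and 8.32 FPKM in KO 4, 8 and 9 and at 124, 72.1 and 6.35 FPKM in WT 1, 3 and 7. The libraries stood in nearly the order they had for *Bglap*, with WT 1 highest and WT 7 lowest. Its log2 difference was -1.23 (SE 0.80, interval -2.89 to 0.43, adjusted p = 0.598), the most negative of the 8. *Bglap3*, a copy that in mice is also expressed in kidney, was at 50.9, 5.43 and 6.74 FPKM in the KO and at 84.2, 52.6 and 4.72 FPKM in the WT libraries. Here KO 4 came close to WT 3, and the groups again overlapped through WT 7. The log2 difference was -1.11 (SE 0.81, interval -2.78 to 0.56, adjusted p = 0.598).

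The osteocalcin copies kept nearly fixed proportions while their summed level moved from 23.3 FPKM in WT 7 to 487 in WT 1. *Bglap2* was at 42.8%, 46.1% and 43.2% of the FPKM of *Bglap* in KO 4, 8 and 9 and at 44.3%, 45.4% and 52.0% in WT 1, 3 and 7. *Bglap3* was at 38.5%, 29.0% and 34.9% of *Bglap* in the KO and at 30.1%, 33.2% and 38.7% in the WT libraries. Neither proportion separated KO from WT. Of the osteocalcin sum, *Bglap* made up 52.4% to 57.3%, *Bglap2* 23.6% to 27.3% and *Bglap3* 16.6% to 21.2% over the 6 libraries. The part that the division of shared reads between *Bglap* and *Bglap2* had in their proportion was not tested. *Bglap3* shares no window of read length with *Bglap*.

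*Alpl* encodes tissue-nonspecific alkaline phosphatase, the enzyme of osteoblast membranes that splits pyrophosphate, an inhibitor of mineral, and releases phosphate. It was at 9.05, 4.77 and 4.15 FPKM in KO 4, 8 and 9 and at 16.2, 11.6 and 3.68 FPKM in WT 1, 3 and 7. WT 1 and WT 3 were above every KO library, and WT 7 was below all of them. The log2 difference was -0.59 (SE 0.53, interval -1.69 to 0.51, adjusted p = 0.598). *Ifitm5*, a membrane protein of osteoblasts whose human gene is mutated in a brittle bone disease, was at 3.05, 0.685 and 1.64 FPKM in the KO and at 4.57, 2.86 and 1.59 FPKM in the WT libraries. KO 4 exceeded WT 3, KO 9 was close to WT 7, and KO 8 was lowest. Its log2 difference was -0.54 (SE 0.48, interval -1.53 to 0.45, adjusted p = 0.598).

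Among the SIBLING genes, *Ibsp* encodes bone sialoprotein, an acidic protein of early mineral deposits. It was at 31.8, 13.3 and 16.2 FPKM in KO 4, 8 and 9 and at 31.1, 35.0 and 14.2 FPKM in WT 1, 3 and 7. KO 4, WT 1 and WT 3 were nearly level, as were KO 8, KO 9 and WT 7, and the range was the narrowest of the 8 genes at 2.63-fold. The log2 difference was -0.37 (SE 0.52, interval -1.45 to 0.70, adjusted p = 0.630). *Dmp1* encodes dentin matrix protein 1, the acidic protein that marks osteocytes and whose loss causes low blood phosphate. It was at 0.563, 0.114 and 0.325 FPKM in the KO and at 1.46, 0.579 and 0.212 FPKM in the WT libraries. Only WT 1 exceeded 1 FPKM, KO 4 and WT 3 were almost equal, and KO 8 was lowest. The log2 difference was -0.34 (SE 0.42, interval -1.21 to 0.52, adjusted p = 0.602) with a pseudocount of 1. This scale compresses such low values, and with a pseudocount of 0.1 the difference was -0.82.

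*Spp1* encodes osteopontin, an acidic, cell-binding protein that osteoblasts, osteoclasts, macrophages and other cells make. It was at 29.2, 16.4 and 21.6 FPKM in KO 4, 8 and 9 and at 56.0, 40.7 and 22.0 FPKM in WT 1, 3 and 7. Every KO library but KO 4 was below the lowest WT library, and KO 4 was below WT 1 and WT 3. The mean was 22.4 ± 6.43 FPKM in KO and 39.6 ± 17.0 in WT (SD, n = 3 each). Its log2 difference was -0.73 (SE 0.50, interval -1.78 to 0.31, adjusted p = 0.598).

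The size of the differences depended on single libraries. WT 7 was the lowest library for *Bglap*, *Bglap2*, *Bglap3* and *Alpl*, and KO 8 for the other 4 members. Without WT 7, the log2 differences were -2.49 for *Bglap*, -2.46 for *Bglap2* and -2.30 for *Bglap3*, and between -1.14 (*Alpl*) and -0.58 (*Dmp1*) for the other members, with adjusted p of at least 0.104. In this setting every KO library was below WT 1 and WT 3 for 6 of the 8 members, all but *Ibsp* and *Ifitm5*, where KO 4 exceeded the lower WT library. The same held for 45.7% of all genes. Without WT 1, the differences shrank to between -0.44 (*Spp1*) and -0.07 (*Dmp1*). Without KO 4, those of *Bglap*, *Bglap2* and *Bglap3* were -2.07, -2.10 and -2.07, and without KO 8, KO 9 or WT 3 that of *Bglap* was -0.69, -0.71 and -0.69. The sign was the same with any library left out, but the size was not.

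With *Xist* above 1 FPKM as a term in the model, the differences were close to 0 for several members, at -0.03 for *Bglap*, -0.04 for *Bglap3* and -0.003 for *Ibsp*. The most negative was *Spp1* at -0.45. The median over the 8 was -0.17, close to the -0.15 over all 621 genes in the same model. Among the libraries with *Xist*, where KO 4 is the single KO library, the log2 difference of KO 4 from the mean of WT 1 and WT 3 was -0.73 for *Bglap2*, -0.69 for *Spp1*, -0.67 for *Bglap*, -0.55 for *Alpl*, -0.38 for *Bglap3*, -0.33 for *Dmp1*, -0.19 for *Ifitm5* and -0.05 for *Ibsp*. Among the libraries without *Xist*, where WT 7 is the single WT library, the difference of the mean of KO 8 and KO 9 from it was 0.60 for *Bglap*, 0.37 for *Bglap2*, 0.30 for *Bglap3*, 0.22 for *Alpl*, 0.05 for *Ibsp*, 0.004 for *Dmp1*, -0.22 for *Spp1* and -0.30 for *Ifitm5*. The osteocalcin genes, *Alpl*, *Ibsp* and *Dmp1* thus had opposite signs on the sides of the division, with *Dmp1* near 0 on the side without *Xist*, whereas *Ifitm5* and *Spp1* were lower in KO on both. These are values without a test, as each side holds 1 library of one genotype.

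**Figure D2:**
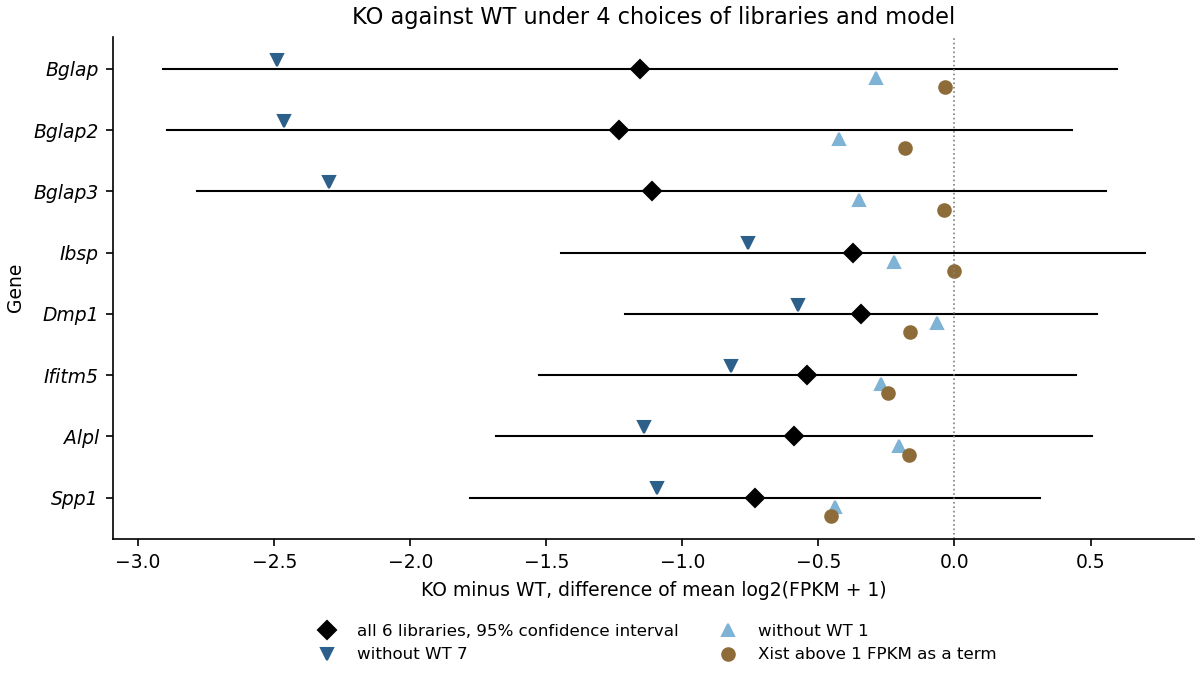
Difference between KO and WT in mean log2(FPKM + 1) for the 8 genes with all 6 libraries (diamonds, with 95% confidence intervals), without WT 7, without WT 1, and with a term in the model for *Xist* above 1 FPKM. Every interval spans 0, and for *Bglap* the value ranges from -2.49 without WT 7 to -0.03 with the *Xist* term.

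The members differed from each other in how far they moved, which the levels relative to *Bglap* in the same library show. *Spp1* was at 22.1%, 87.8% and 112% of the FPKM of *Bglap* in KO 4, 8 and 9 and at 20.0%, 25.7% and 180% in WT 1, 3 and 7. *Ibsp* was at 24.0%, 71.1% and 84.2% of *Bglap* in the KO and at 11.1%, 22.1% and 116% in the WT libraries. Both were thus low beside *Bglap* in the 3 libraries with high osteocalcin, and near or above it in WT 7. *Alpl* was at 6.84%, 25.5% and 21.5% of *Bglap* in the KO and at 5.80%, 7.33% and 30.1% in the WT libraries. *Ifitm5* was at 2.31%, 3.66% and 8.49% in the KO and at 1.64%, 1.80% and 13.0% in the WT libraries, with the same libraries on either side. *Dmp1* divided the libraries otherwise, with 0.426%, 0.609% and 1.69% of *Bglap* in the KO and 0.522%, 0.365% and 1.73% in the WT libraries, so that KO 8 lay with the 3 high libraries and KO 9 with WT 7.

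**Figure D3:**
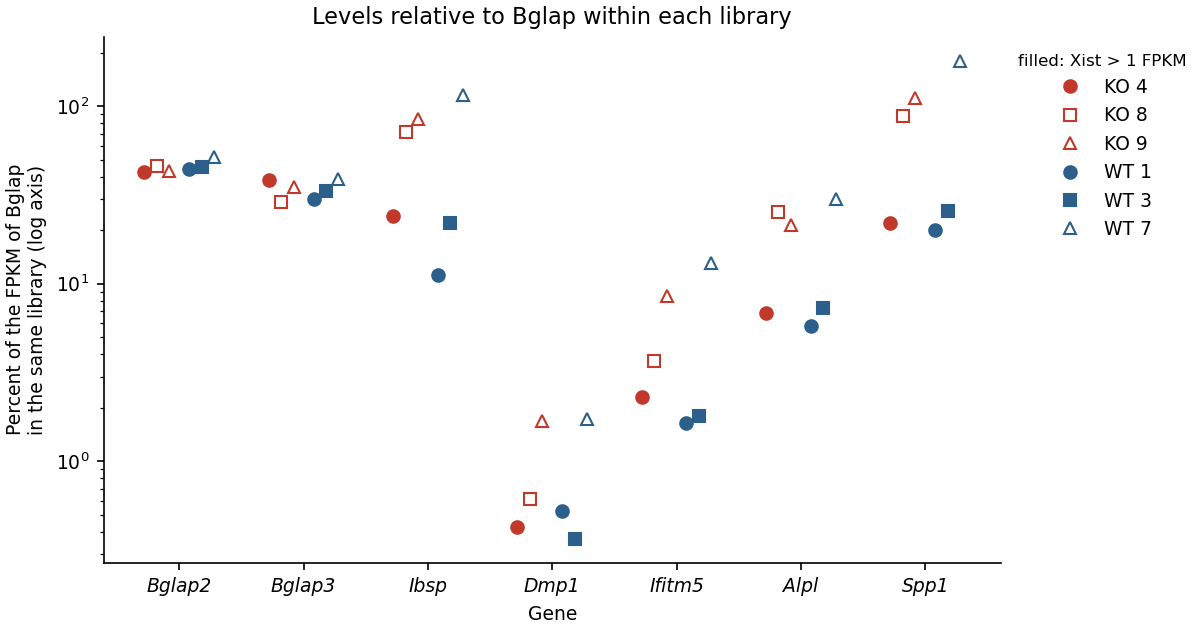
FPKM of the other 7 genes as a percentage of the FPKM of *Bglap* in the same library (log axis), with KO in red, WT in blue and filled symbols for libraries with *Xist* above 1 FPKM. *Bglap2* and *Bglap3* stay between 29.0% and 52.0% in all libraries, whereas *Spp1* ranges from 20.0% in WT 1 to 180% in WT 7.

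The order of the levels within a library changed accordingly. *Bglap* was the highest member in KO 4, KO 8, WT 1 and WT 3, and *Spp1* in KO 9 and WT 7. *Alpl*, *Ifitm5* and *Dmp1* were sixth, seventh and eighth in every library. Osteocalcin made up 76.5% of the summed FPKM of the members in KO 4, 81.7% in WT 1 and 75.7% in WT 3, but 48.1% in KO 8, 43.9% in KO 9 and 35.8% in WT 7. None of the ratios of a member to *Bglap* separated KO from WT. The ratio of *Bglap* to *Col1a1*, the gene of the main collagen chain of bone, did so narrowly. *Bglap* was at 61.4%, 70.5% and 61.0% of the FPKM of *Col1a1* in the KO and at 59.4%, 55.9% and 53.1% in the WT libraries, a log2 difference of 0.19 on the scale with a pseudocount of 1 and with no test. This ratio was picked out after its values were seen. The ratio of no other member to *Col1a1* separated the groups. That of *Bglap2*, the nearest copy, was 26.3%, 32.5% and 26.3% in KO 4, 8 and 9 and 26.3%, 25.4% and 27.6% in WT 1, 3 and 7.

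The gene with the profile most like that of *Bglap*, outside the 8, was *Col1a1*. Likeness was taken as the root mean square difference of log2(FPKM + 1) over the 6 libraries after subtracting the mean of each gene, so it is 0 for parallel profiles. It was 0.12 for *Col1a1* and 0.18 for *Col1a2*, the second type I collagen chain, against 0.12 for *Bglap2* and 0.17 for *Bglap3*. The next were *Col11a1*, a minor fibrillar collagen (0.58), *Dcn*, a collagen-binding proteoglycan (0.59), and *Sparc*, the collagen-binding protein osteonectin (0.62), and the median over all genes was 1.54. *Col1a1* was at 215.5, 26.6 and 31.6 FPKM in KO 4, 8 and 9 and at 470.5, 283.6 and 23.0 FPKM in WT 1, 3 and 7. It was above *Bglap* in every library, and the libraries stood in the same order for both genes.

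*Dmp1* and *Spp1* had other neighbours. Those of *Dmp1* were *Rcn3* (0.14), *Ypel2* (0.16), *Uaca* (0.17), *Tm4sf1* (0.18) and *Wif1*, a secreted WNT inhibitor (0.18), with a median of 0.52 over all genes. Those of *Spp1* were *Timp1*, an inhibitor of matrix proteases (0.10), *Gpx8* (0.13), *Nrep* (0.13), *Kcnj8* (0.13) and *Kazald1* (0.14), with a median of 0.56. Most of these genes were near 1 to 3 FPKM, where the pseudocount narrows a profile, so they are less telling than the match of *Bglap* with type I collagen. Between members, the difference was 0.12 to 0.17 among the osteocalcin copies, 0.19 (*Ifitm5* and *Spp1*) to 0.40 (*Dmp1* and *Alpl*) among the other 5, and 0.95 to 1.42 between an osteocalcin copy and another member. The values of 0.40 and 1.42 (*Bglap* and *Dmp1*) are both of pairs with *Dmp1*, whose low levels the pseudocount compresses.

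Bone collagen genes outside the 8, as far as they were in the table, showed the same division of the libraries. Of 22 genes for bone collagen and its assembly, 15 were in the table. All 15 had a lower mean in KO and none was called, with a median log2 difference of -0.76. Their summed level was 513, 84.0 and 114 FPKM in KO 4, 8 and 9 and 1100, 685 and 76.9 FPKM in WT 1, 3 and 7, and all 15 had their 3 highest values in KO 4, WT 1 and WT 3. Besides the type I collagen chains and *Sparc*, the highest was *Serpinh1*, the collagen chaperone, at 17.4, 6.15 and 6.86 FPKM in the KO and 36.6, 28.0 and 6.83 FPKM in the WT libraries. WT 7 again lay with KO 8 and KO 9.

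Of 18 genes of osteoblast transcription and signaling, 6 were in the table, all with a lower mean in KO (median -0.53) and none called. They summed to 11.7, 3.78 and 4.03 FPKM in KO 4, 8 and 9 and to 18.3, 15.6 and 4.30 FPKM in WT 1, 3 and 7. *Sp7*, osterix, the transcription factor required for osteoblasts to form, was at 1.72, 0.445 and 0.456 FPKM in the KO and at 3.16, 2.55 and 0.378 FPKM in the WT libraries. *Pth1r*, the receptor of parathyroid hormone, was at 2.60, 0.583 and 0.663 FPKM in the KO and at 3.68, 2.77 and 0.712 FPKM in the WT libraries. Both thus put the libraries in the 2 sets that the members do. *Cdh11*, a mesenchymal cadherin, and *Wif1* did likewise. Of the 11 osteocyte genes that were listed beside *Dmp1*, none was in the table, so *Dmp1* stood alone for that cell.

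Mineralization enzymes, transporters and inhibitors were in the table with 4 of 14 genes, all with a lower mean in KO (median -0.58) and none called. One of them did not follow the others. *Mgp*, matrix Gla protein, an inhibitor of mineral in cartilage and vessels, was at 6.89, 3.85 and 3.73 FPKM in KO 4, 8 and 9 and at 4.35, 7.03 and 10.3 FPKM in WT 1, 3 and 7. It was highest in WT 7, in which the osteocalcin genes were lowest, although *Mgp* and osteocalcin are Gla proteins of the same family. *Smpd3*, the sphingomyelinase needed for mineralization, was at 1.41, 0.429 and 0.628 FPKM in the KO and at 2.48, 1.73 and 0.396 FPKM in the WT libraries. *Bgn*, the matrix proteoglycan biglycan, was at 37.7, 14.2 and 16.2 FPKM in the KO and at 48.9, 45.3 and 17.5 FPKM in the WT libraries. *Smpd3* and *Bgn* had their 3 highest values in KO 4, WT 1 and WT 3, as did *Sparc*, which this list shares with the collagen list.

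Those markers of other cells of bone or its vessels that were in the table moved with the members. The authors' selection kept only genes that differed between some KO and some WT library. Listed genes absent from the table may have varied less and were not seen, so these values do not describe the cell types as a whole. Of 13 osteoclast genes, 2 were in the table, *Ctsk*, the collagen-degrading protease, and *Atp6v0d2*, a proton pump subunit. Both had a lower mean in KO (median -0.84) and neither was called, and they summed to 12.0, 4.10 and 4.48 FPKM in KO 4, 8 and 9 and to 23.6, 27.7 and 4.80 FPKM in WT 1, 3 and 7. The 7 endothelial genes in the table (of 12) summed to 23.8, 9.45 and 8.83 FPKM in the KO and to 38.3, 39.7 and 10.6 FPKM in the WT libraries, with a median of -0.70 and none called. *Plvap*, of fenestrated vessels, *Cdh5*, *Stab2* and *Esam* were the highest of them. The 2 chondrocyte genes in the table (of 11), *Col2a1* and *Col10a1*, had a median of -0.68 and summed to between 1.18 and 7.32 FPKM. All of these 11 genes were highest in KO 4, WT 1 and WT 3.

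Reticular and adipocyte genes in the table divided the libraries in the same way with a smaller span. The 5 in the table (of 12) summed to 100.8, 50.1 and 56.6 FPKM in KO 4, 8 and 9 and to 105.0, 108.8 and 40.2 FPKM in WT 1, 3 and 7. Their median log2 difference was -0.21, and 0.12 with the *Xist* term. *Adipoq*, *Fabp4*, *Igfbp5* and *Lpl* were the highest, and none was called. Of 16 macrophage genes 1 was in the table, *Timd4*, at 2.15, 0.981 and 1.26 FPKM in the KO and at 1.85, 1.85 and 0.406 FPKM in the WT libraries. *Timd4* too had its 3 highest values in KO 4, WT 1 and WT 3. Its log2 difference was 0.10, and -0.24 without WT 7. With so few osteoclast and macrophage genes at hand, the cells behind *Spp1* were not told apart.

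B-cell precursor genes and globins did not follow this division. The 10 B-cell precursor genes in the table (of 12) summed to 638, 846 and 725 FPKM in KO 4, 8 and 9 and to 1522, 1002 and 558 FPKM in WT 1, 3 and 7. All 10 had a lower mean in KO (median -0.34) and none was called, but none had KO 4, WT 1 and WT 3 as its 3 highest libraries. *Cd79b*, *Vpreb3* and *Igll1* were among them, and KO 4 was the lowest KO library for each of these. The 3 erythroid genes in the table (of 11), globins, had a median of 0.11, with a higher mean in KO for 2 and a lower one for 1. None of the 3 had KO 4, WT 1 and WT 3 as its 3 highest libraries. *Hbb-bt*, the globin with the lower mean, was at 1581 FPKM in WT 1 and at 90.0 to 109 FPKM in the other libraries. No neutrophil gene of 12 was in the table. How far the makeup of the cell suspensions contributed to the values of the 8 members was not tested.

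**Figure D4:**
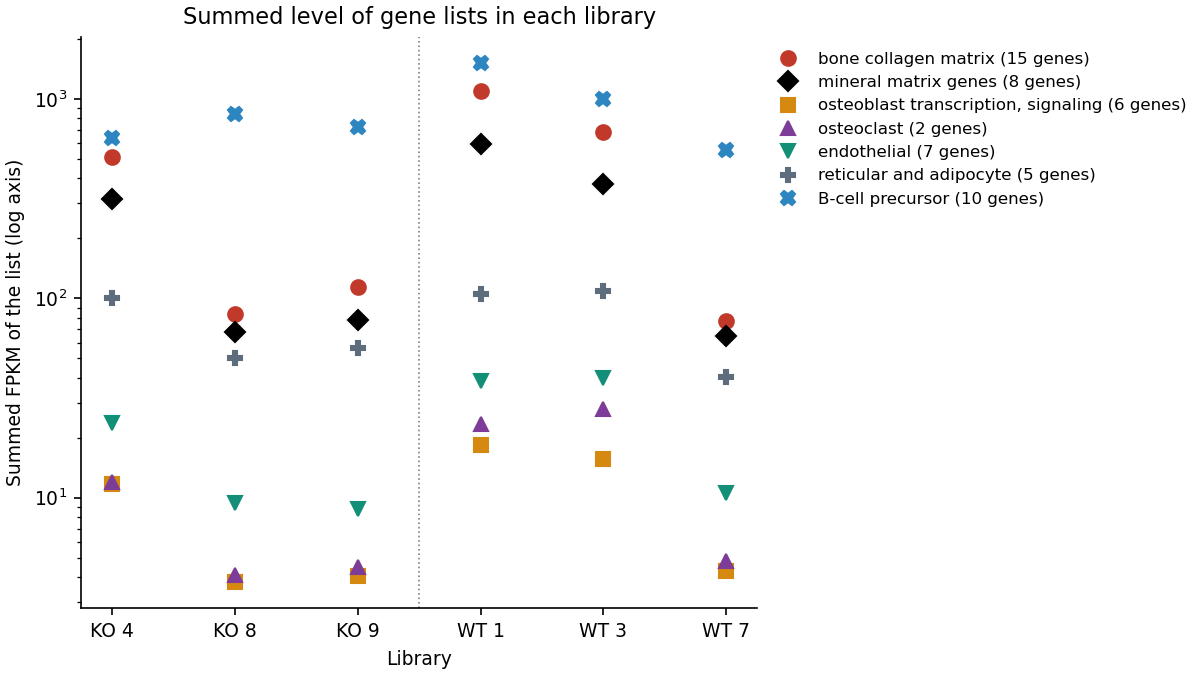
Summed FPKM (log axis) of 7 gene lists in each library, with the number of genes of each list in the table. The mineral matrix, collagen, osteoblast, osteoclast, endothelial and reticular lists are all higher in KO 4, WT 1 and WT 3 than in KO 8, KO 9 and WT 7, whereas the B-cell precursor list is lower in KO 4 than in KO 8.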

How the data were processed

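RNA of mouse BM cells was sequenced in 3 KO and 3 WT libraries with paired reads of 100 nt. Per the labels and the paper, the authors aligned reads to mm10 with HISAT2 version 2.0.5 and estimated FPKM with StringTie version 1.3.3b. The submitters' notes also name Bowtie2. How reads shared by near-identical genes were divided is not given in the paper or the labels. The deposited table holds FPKM and normalized log2 values of 621 genes selected by the authors, whose further normalization is not named. Fold columns and enrichment sheets hold the authors' own comparisons and were not used. No count model and no interval from depth was used, as FPKM lack both counts and depth.

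KO and WT were compared on log2(FPKM + 1) with limma (version 3.58.1, R version 4.3.3), letting the prior variance follow the mean level, and with p-values adjusted by Benjamini and Hochberg over all 621 genes (each above 0 in at least 3 libraries) at 0.05. On simulated data with 621 genes, 200 of them changed, limma called 26.6% of genes with a log2 difference of 1, 83.7% with 2, 98.0% with 4 and 1.25% of unchanged genes. Genes were simulated as independent, which real genes are not. These shares are averages over genes that each kept their own spread. For genes as variable as the osteocalcin copies the share can be lower, and it was not worked out separately.

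Named genes were the 8 members, *Xist*, the 4 highest genes of each list in the table, and the 5 genes most like *Bglap*, *Dmp1* and *Spp1*. A gene that this rule names is not reported here. The members and lists were chosen with earlier results of these data known. Coordinates and promoters are from RefSeq on GRCm38.p6, and coding sequences from GENCODE M21. The coding sequences were aligned with Biopython version 1.88. Protein sequences were not used here. Alternatives tried were keeping only genes with a mean of 1 FPKM or more, no filter, a pseudocount of 0.1, quantile normalization, libraries scaled to the same median, a prior without trend, the authors' deposited log2 values, a threshold of 0.01, *Xist* above 1 FPKM as a term, and each library left out in turn. For ratios to *Bglap*, FPKM + 0.1 and *Col1a1* as the denominator were tried.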

Additional observations from a re-analysis of the deposited data

How the results depend on the processing

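Over 111 alternative values of the log2 differences of the 8 members, all were negative, and adjusted p by limma ran from 0.104 to 0.994. The filter settings and the prior without a trend cannot change a log2 difference, and every setting reuses the same libraries. The count of negative values is thus not independent evidence. Values within each side of the *Xist* division, given above, are not among the 111 and were not all negative. *Dmp1* gave no value at a mean of at least 1 FPKM. With each library left out in turn, the number of genes past the threshold was 0 to 1, reaching 1 without KO 4 and again without KO 9, and no member passed. Members whose groups did not overlap then numbered 0 to 6 of 8, with 1 of 8 without KO 4 (*Spp1*) and 6 of 8 without WT 7. Of all 621 genes, those whose groups did not overlap numbered 63 to 415, against 45 (7.25%) with all libraries. They were 146 of 621 without KO 4, 117 of 621 without KO 8 and 415 of 621 without WT 7. Without WT 7, most genes of the table thus did not overlap either, and the 6 members are no trait of their own. The median log2 difference of all genes was -0.35, and it was -0.18 with quantile normalization and -0.22 with equal library medians, against which the members had -0.55 and -0.52. The log2 ratio of *Bglap2* was -0.07 to *Bglap* and 0.12 to *Col1a1* (KO minus WT).

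No paired analysis was possible because the KO and WT libraries share no replicate number. Depth is unknown, 13.0% of FPKM values were under 1, *Dmp1* among them in 5 of 6 libraries, and *Bglap* and *Bglap2* share reads.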
